A study of Mus musculus with 38 samples.

Results

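The genes described here are 6 insulin-like growth factor binding proteins, Igfbp2, Igfbp3, Igfbp4, Igfbp5, Igfbp6 and Igfbp7, and the receptor Igf1r. They were taken by gene symbol, and all 7 were found among the 15644 genes with a probe set of their own. The 7 also passed the filter on dim signal, which 9799 genes passed. The set was chosen by its measured signal as well: Igfbp3 had been noticed to rise in Olig2 cells of Pdgf tumours, so every comparison that uses those arrays is given below as a description with no test.

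The insulin-like growth factors are secreted ligands that signal through the receptor tyrosine kinase encoded by Igf1r and, through insulin receptor substrates, to the kinases of the PI3K and MAP kinase pathways. The binding proteins are secreted too. They hold the ligands in the extracellular fluid, prolong their life and limit or deliver them to the receptor, and proteases cut the binding proteins to release the ligand. Igfbp7 binds insulin-like growth factors weakly and is a known product of blood vessels in tumours. In the oligodendrocyte lineage, IGF signalling is known for supporting the survival of progenitors and the making of myelin.

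The study profiled ribosome-bound RNA by translating ribosome affinity purification, in which a tagged ribosomal protein made in 1 cell type is pulled down with the messages being translated. Each of the 38 samples was hybridised to 1 one-colour Affymetrix mouse array after 2-cycle amplification. From the cortex of adult mice came 20 arrays: bound RNA of neurons (Snap25 line, 3 arrays), astrocytes (Aldh1L1 line, 3), mature oligodendrocytes (Cnp1 line, 3), oligodendrocyte progenitors (Pdgfra line, 3) and Olig2 cells (3), and 5 arrays of total cortex RNA. From tumours of a mouse glioma model came 18 arrays: for each of 3 variants, named Pdgf, Pdgf Cre and Recruited in the labels, 3 arrays of bound RNA from Olig2 cells and 3 of total tumour RNA. The strain of all mice was given as mixed, from c57/bl6j, FVB and also Swiss-Webster. Each cortical cell type was taken from pools of at least 2 mice; the age of the mice with tumours and the genes or agents that set the 3 variants apart are not given in the sources used here. Cortex samples are described as wildtype and tumour samples as induced.

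Signals are log2 values after quantile normalisation over the 38 arrays. A signal under 5.64 (50 on the linear scale) is called dim and is treated as a bound only: a fold against a dim group is a minimum, and no fold is given where both groups were dim. A gene passed the test when it differed 2-fold or more with a Benjamini-Hochberg adjusted p below 0.05, in 1 limma model of the 12 groups. Levels of different genes are not compared. Each of the 12 groups had its own lowest deposited value, as GCRMA run within each group would give; whether it was run so is not given in the sources used here. If it was, arrays of 1 group were made alike before any test, and the p-values measure only the spread left after that step. Apart from the pools of cortical cell types, nothing in the labels says that the arrays of a group came from separate animals, so this spread may be technical.

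The reporter genes bore out the labels. Snap25 was highest in neurons (15.46), Aldh1l1 in astrocytes (11.45) and Cnp in mature oligodendrocytes (14.23). Among the cortical groups Pdgfra was highest in progenitors (10.35), and Olig2 lay between 12.39 and 12.70 in the 4 groups of Olig2 cells. Transcripts of other cells were also present in the bound RNA: Snap25 was at 14.67 in progenitors and 14.04 in mature oligodendrocytes. The choroid plexus gene Ttr ranged from 11.91 to 14.7 in progenitors; its part in the member levels was not tested. The total RNA of Recruited tumour 3 stood apart. Its neuron marker sum (16.74) was just above the range of total cortex (16.54 to 16.72), and Olig2 (9.45) and Pdgfra (7.82) were lowest there among the Recruited total arrays. Results that rest on the Recruited tumours are therefore given with tumour 3 and, where the call or its size moved, without it; that alternative was added after the data had been seen. In bulk RNA of this kind, fewer cells of a type and less RNA per cell cannot be told apart.

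The promoters of Igfbp2, Igfbp3, Igfbp4 and Igfbp7 are shown because these 4 genes were above the dim limit in every tumour group and were higher in at least 1 comparison of tumour with cortex described below. Each line gives the 150 bases before the annotated transcription start, from the RefSeq table of build GRCm38.p6, 5′ to 3′ on the strand of the gene. The windows are at chr1:72824330-72824479 (plus strand; the upstream of 2 annotated Igfbp2 starts), chr11:7213924-7214073 (minus strand, Igfbp3), chr11:99041094-99041243 (plus strand, Igfbp4) and chr5:77408046-77408195 (minus strand, Igfbp7). Capitals mark matches on either strand to the TATA motif TATANA or to the GC box GGGCGG.
Igfbp2: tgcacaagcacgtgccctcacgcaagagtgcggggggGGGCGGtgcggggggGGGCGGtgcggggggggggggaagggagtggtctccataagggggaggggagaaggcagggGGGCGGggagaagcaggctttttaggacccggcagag
Igfbp3: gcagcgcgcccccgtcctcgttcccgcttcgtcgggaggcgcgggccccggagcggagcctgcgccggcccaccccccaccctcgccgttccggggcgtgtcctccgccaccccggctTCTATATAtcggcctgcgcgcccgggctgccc
Igfbp4: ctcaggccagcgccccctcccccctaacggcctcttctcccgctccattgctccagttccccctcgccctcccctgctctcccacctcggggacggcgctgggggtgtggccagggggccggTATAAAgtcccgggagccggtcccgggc
Igfbp7: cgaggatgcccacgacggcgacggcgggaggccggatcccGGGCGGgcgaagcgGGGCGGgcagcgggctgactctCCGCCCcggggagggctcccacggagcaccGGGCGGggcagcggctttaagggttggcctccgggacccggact
The windows fell into 2 kinds. Igfbp3 and Igfbp4 each held TATA matches within 32 bases of the start and no GC box; the 3 matches in Igfbp3 overlap each other and print as 1 block. Igfbp2 held 3 GC boxes and Igfbp7 held 4, with no TATA match. Among 27025 promoters cut to the same 150 bases, 14.1% held the TATA motif and 29.0% the GC box. In the other members, Igf1r held 2 GC boxes, Igfbp6 held TATA matches far upstream of the start (141 to 148 bases before it), and Igfbp5 held neither motif. These are matches of letters in a window and were not compared with the signals.

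Igfbp3 encodes the main carrier of insulin-like growth factors in blood. Among the cortical cells its message was read in progenitors and Olig2 cells. The 3 progenitor arrays read 8.76, 8.78 and 9.26. The 3 cortical Olig2 arrays read 6.80, 6.80 and 6.46. Igfbp3 was dim on every neuron, astrocyte, mature oligodendrocyte and total cortex array, with group means of 4.87, 2.08, 2.16 and 3.17. All progenitor arrays were therefore above all cortical Olig2 arrays, and both groups were above every other cortical array. Igfbp3 was at least 9.77-fold higher in progenitors than in total cortex (log2 difference 5.76 ± 0.47, SE; adjusted p = 6.09e-12, limma). It was also at least 9.77-fold higher than in mature oligodendrocytes (log2 difference 6.77 ± 0.52, SE; adjusted p = 2.97e-12, limma). In cortical Olig2 cells it was at least 2.06-fold above total cortex (adjusted p = 9.03e-08, limma), a difference that did not pass with dim signals raised to the limit (adjusted p = 0.0533, limma).

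In the tumours Igfbp3 was above its level in every cortical group but progenitors on all 18 arrays. The Pdgf tumour Olig2 cells, the group that drew attention to the gene, read 10.48, 10.38 and 10.44, which is 13.4-fold above cortical Olig2 cells in the group means. The Pdgf Cre tumour Olig2 cells read 9.17, 9.12 and 9.88. The Recruited tumour Olig2 cells read 9.98, 11.27 and 8.66. No array of the 3 tumour groups overlapped the cortical Olig2 arrays, and the widest spread was in the Recruited tumours. Igfbp3 rose 6.53-fold in the Pdgf Cre tumours (log2 difference 2.71 ± 0.52, SE; adjusted p = 5.81e-05, limma) and 9.75-fold in the Recruited tumours (log2 difference 3.29 ± 0.52, SE; adjusted p = 5.91e-06, limma) over cortical Olig2 cells. Those control arrays are shared with the Pdgf comparison that drew attention to Igfbp3, so these tests are not independent of that choice. The 3 lowest values among the bound tumour arrays, on Pdgf Cre and Recruited arrays and ranging from 8.66 to 9.17, lay inside the progenitor range of 8.76 to 9.26 or just under it. Without Recruited tumour 3 the Recruited difference was larger (log2 difference 3.94 ± 0.37, SE; adjusted p = 8.07e-10, limma). Igfbp3 did not pass between Recruited and Pdgf Cre tumour Olig2 cells (1.49-fold, adjusted p = 0.36, limma), and it passed without tumour 3 (log2 difference 1.23, adjusted p = 0.00588, limma). With arrays left out singly, this log2 difference ran from -0.07 to 1.23.

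**Figure D1:**
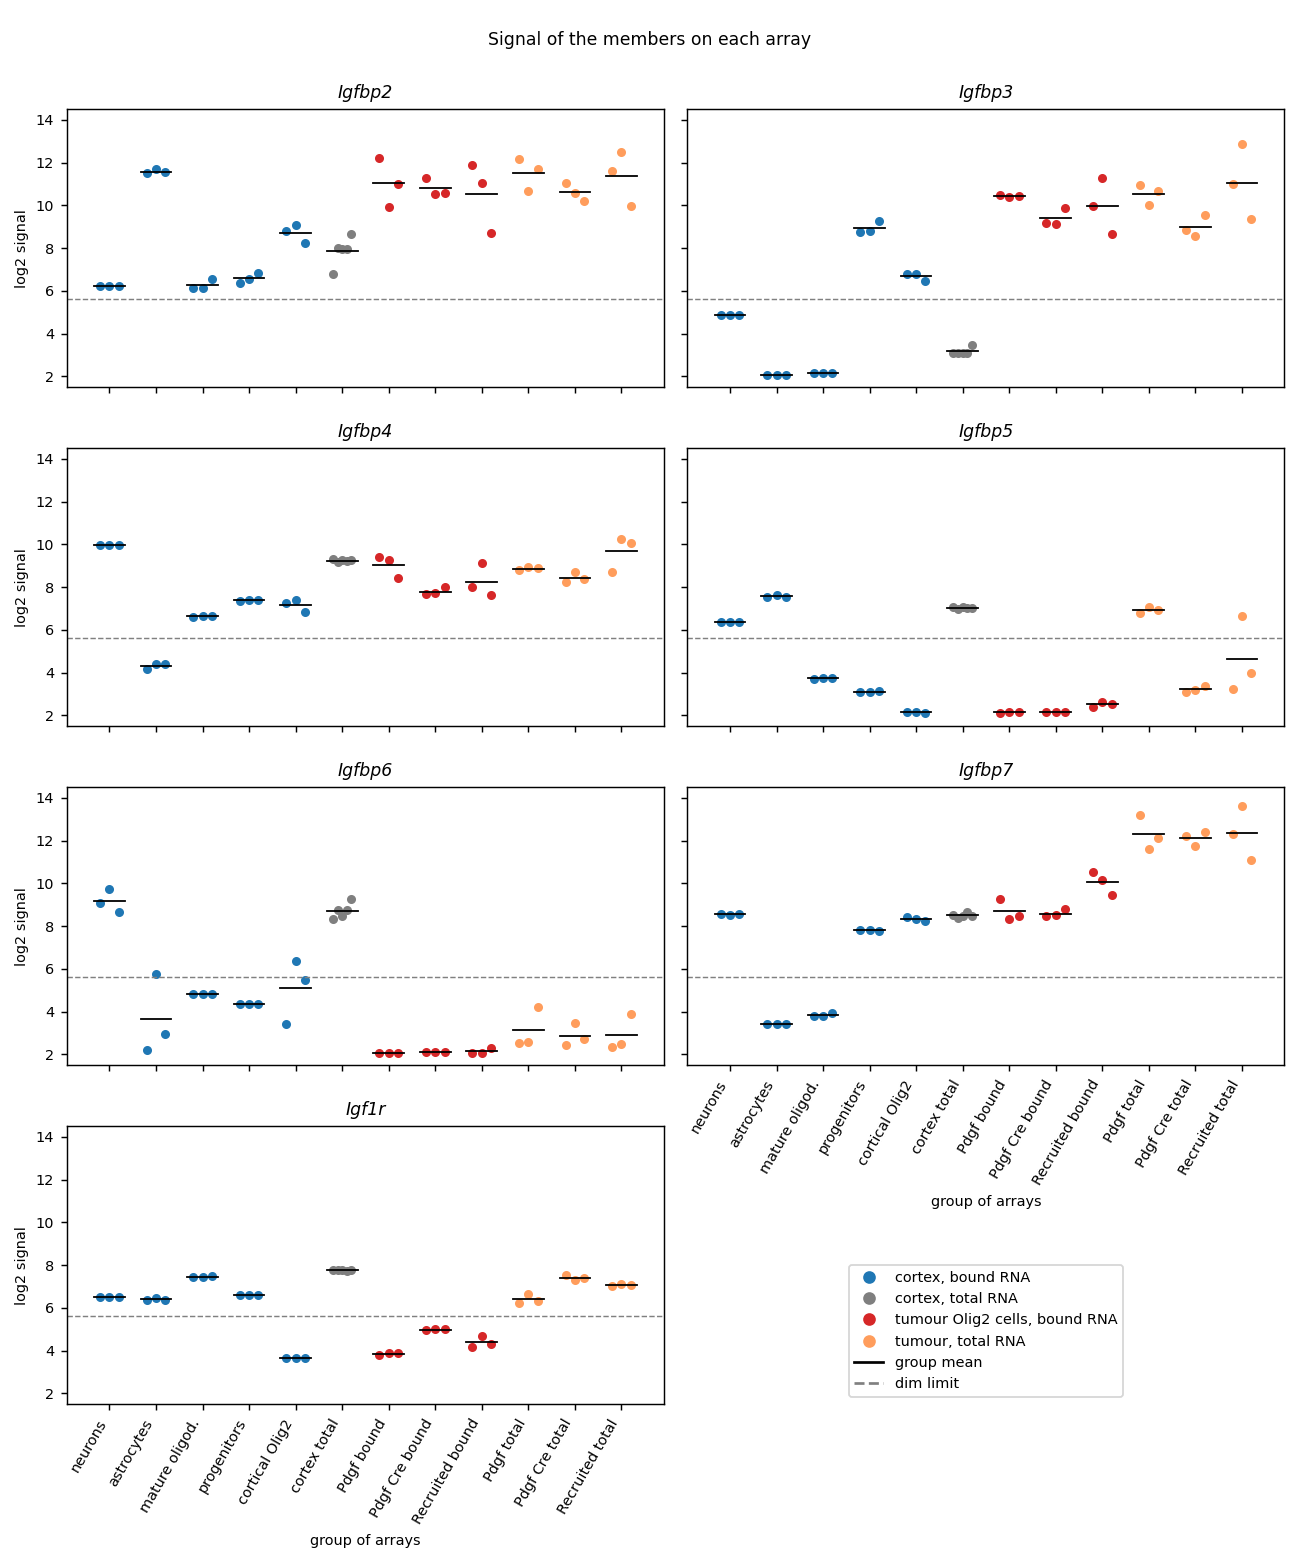
Log2 signal (vertical axis) of the 7 genes on each of the 38 arrays, by group (horizontal axis); points are arrays, black lines group means and the dashed line the dim limit of 5.64. Igfbp3 lay at or above 8.59 on all tumour and progenitor arrays and was dim in neurons, astrocytes, mature oligodendrocytes and total cortex; Igfbp7 was higher in total tumour RNA than in bound tumour RNA.

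Igfbp2, a binding protein made in the developing brain and by astrocytes, was highest in astrocytes among the cortical cells. The astrocyte arrays read 11.5, 11.69 and 11.55, and the 5 total cortex arrays ranged from 6.77 to 8.67 with a median of 7.95. The groups did not overlap, and Igfbp2 was 13.1-fold higher in astrocytes (log2 difference 3.71 ± 0.55, SE; adjusted p = 5.18e-07, limma). It was lower than in total cortex in neurons (3.07-fold, adjusted p = 0.0141, limma), mature oligodendrocytes (3.02-fold, adjusted p = 0.0108, limma) and progenitors (2.44-fold, adjusted p = 0.038, limma). The neuron arrays all read 6.25. The progenitor call did not pass when any 1 progenitor array or any of the cortex arrays 2, 3, 4 and 5 was left out (adjusted p from 0.0517 to 0.105, limma). Cortical Olig2 cells read 8.78, 9.10 and 8.26, and overlapped total cortex.

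In the tumour Olig2 cells Igfbp2 was higher than in cortical Olig2 cells. The Pdgf Cre arrays read 11.27, 10.52 and 10.58, all above the 3 cortical Olig2 arrays, and Igfbp2 rose 4.23-fold there (log2 difference 2.08 ± 0.62, SE; adjusted p = 0.00484, limma). The Recruited arrays read 11.9, 11.07 and 8.69, the lowest of them inside the cortical Olig2 range. The Recruited difference of 3.58-fold passed the test (adjusted p = 0.0141, limma) but did not without Recruited array 1 (adjusted p = 0.14), Recruited array 2 (adjusted p = 0.0639) or cortical Olig2 array 3 (adjusted p = 0.0581, limma), nor with only those groups fitted (adjusted p = 0.164, limma). Without tumour 3, the lowest of the Recruited tumours, it passed with a log2 difference of 2.78 ± 0.50 (SE; adjusted p = 3.19e-05, limma). The Pdgf arrays read 12.24, 9.94 and 11.02, a 5.11-fold difference that is described with no test. The summed signal of the 13 astrocyte markers was 13.51 to 14.4 on the Pdgf Cre bound arrays against 15.34 to 15.49 on the cortical Olig2 arrays. On the Recruited bound arrays that sum was 15.81 to 16.31, above cortical Olig2 cells. The part of astrocyte RNA in the Igfbp2 results was not tested.

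Igfbp4, a binding protein that mostly holds back IGF action, was highest in neurons, which read 9.98, 9.95 and 9.97. Total cortex ranged from 9.17 to 9.30 around a median of 9.26, without overlap, but the difference of 1.65-fold was under the 2-fold threshold (adjusted p = 0.023, limma). As deposited, without further normalisation, the same difference passed (log2 difference 1.58, adjusted p = 4.1e-06, limma), on a scale where the median difference of all genes was 0.66, against 0.03 here. Igfbp4 was dim in astrocytes, at least 12.1-fold below total cortex (adjusted p = 2.26e-16, limma). The oligodendrocyte lineage lay between. Igfbp4 was 6.09-fold below total cortex in mature oligodendrocytes (adjusted p = 6.44e-10, limma), 4.28-fold below in cortical Olig2 cells (adjusted p = 3.91e-08, limma) and 3.63-fold below in progenitors (adjusted p = 4.35e-07, limma). In Pdgf tumour Olig2 cells the 3 arrays read 9.4, 9.29 and 8.43, which is 3.72-fold above the cortical Olig2 mean and is described only. The Pdgf Cre arrays read 7.66, 7.72 and 7.99 and the difference of 1.56-fold did not pass (adjusted p = 0.0638, limma). The Recruited arrays read 8.01, 9.14 and 7.62, and the 2.16-fold difference passed (adjusted p = 0.00269, limma). Without Recruited array 2 it did not (adjusted p = 0.0523), and without cortical Olig2 array 3 it fell under 2-fold (log2 difference 0.95, adjusted p = 0.0203, limma). It also did not pass with only those groups fitted (adjusted p = 0.102) or with spike-in scaling (adjusted p = 0.0573, limma).

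Igfbp7 was read in neurons, progenitors and cortical Olig2 cells at levels near total cortex, with means of 8.54, 7.81 and 8.32 against 8.51. It was dim in astrocytes (at least 7.31-fold below total cortex, adjusted p = 3.97e-14, limma) and in mature oligodendrocytes (at least 7.31-fold below, adjusted p = 4.83e-13, limma). Progenitors read 7.82, 7.83 and 7.79 and mature oligodendrocytes 3.78, 3.78 and 3.95. The difference between these stages of the lineage was at least 4.50-fold (adjusted p = 3.48e-10, limma). Among tumour Olig2 cells the Recruited arrays stood highest at 10.54, 10.16 and 9.47. The Pdgf Cre arrays read 8.45, 8.50 and 8.79 and the Pdgf arrays 9.27, 8.35 and 8.45, so the Recruited arrays did not overlap either. Igfbp7 rose 3.34-fold in Recruited tumour Olig2 cells over cortical Olig2 cells (adjusted p = 0.000398, limma). On the same Recruited arrays the mural and fibroblast marker sum was 9.79, 11.36 and 8.54, against 7.13 to 7.33 in cortical Olig2 cells, and the microglia sum 12.82, 10.68 and 8.44 against 7.49 to 7.72; their part was not tested. Igfbp7 was 2.78-fold higher in Recruited than in Pdgf Cre tumour Olig2 cells (log2 difference 1.47 ± 0.38, SE; adjusted p = 0.0016, limma), a comparison in which no other member passed and 34.5% of all genes did, 17.5% higher and 17.0% lower.

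Igfbp5, which also binds the extracellular matrix, and Igfbp6, which prefers IGF2 over IGF1, were read mainly outside the oligodendrocyte lineage. Igfbp5 read 7.55, 7.62 and 7.55 in astrocytes, 6.36, 6.35 and 6.35 in neurons and 6.99 to 7.06 in total cortex, and it was dim in all 5 groups of Olig2 cells or progenitors. It was at least 2.62-fold below total cortex in progenitors (adjusted p = 7.07e-11, limma), mature oligodendrocytes (adjusted p = 2.14e-09, limma) and cortical Olig2 cells (adjusted p = 3.77e-13, limma). Igfbp6 read 9.1, 9.73 and 8.64 in neurons and 8.32 to 9.26 in total cortex, and these groups overlapped. On the arrays of the other groups it was dim, except astrocyte array 2 (5.78) and cortical Olig2 array 2 (6.37). Igfbp6 was at least 8.34-fold lower in mature oligodendrocytes and in progenitors than in total cortex (adjusted p = 4.86e-07 and 8.36e-08, limma). It passed the filter on dim signal through the neuron and total cortex arrays, so a lower call against total cortex was favoured in advance.

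Igf1r, the receptor, was highest in total cortex, at 7.70 to 7.78. Mature oligodendrocytes followed at 7.45, 7.46 and 7.47, with no overlap but a difference of only 1.23-fold (adjusted p = 0.00284, limma). Igf1r was 2.55-fold lower in astrocytes (adjusted p = 9.75e-15, limma), 2.37-fold lower in neurons (adjusted p = 2.4e-13, limma) and 2.23-fold lower in progenitors (adjusted p = 8.24e-13, limma) than in total cortex. The neuron difference shrank under 2-fold as deposited (log2 difference -0.89). Cortical Olig2 cells read 3.65, 3.66 and 3.64, at least 4.32-fold below total cortex (adjusted p = 2.08e-26, limma). That was also under the means of mature oligodendrocytes (7.46) and progenitors (6.60), although cortical Olig2 cells read Cnp at 13.29 and Pdgfra at 8.84. The cause of this gap was not tested. Olig2 cells of the Pdgf, Pdgf Cre and Recruited tumours were dim as well, with means of 3.86, 4.98 and 4.39. Whether the receptor differed between these dim groups could not be read from these arrays.

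Counted over the 7 members, 1 was higher and 2 lower in neurons than in total cortex, against 28.2% of all genes called in either direction (13.4% higher and 14.8% lower); the higher call was Igfbp3, which was dim in both groups. In astrocytes 1 was higher and 5 lower (background 61.0%, 31.1% higher and 29.8% lower), with Igfbp3 among the lower calls although dim in both groups. In mature oligodendrocytes 5 were lower (background 52.9%, 25.2% higher and 27.7% lower). In progenitors 1 was higher and 5 lower (background 48.2%, 24.4% higher and 23.8% lower), and in cortical Olig2 cells 1 was higher and 4 lower (background 56.1%, 29.5% higher and 26.6% lower). Between progenitors and mature oligodendrocytes 2 were higher in progenitors, Igfbp3 and Igfbp7 (background 38.7%, 18.8% higher and 19.9% lower). These 5 cell types were set against the same total cortex arrays.

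In the tumour Olig2 cells, 3 members were called higher and 1 lower in Pdgf Cre tumours than in cortical Olig2 cells, where 36.1% of all genes were called, 17.7% higher and 18.3% lower. Of these 4 calls, those of Igfbp6 and Igf1r rested on signal that was dim in both groups. In Recruited tumours 4 were higher and 1 lower (background 27.5%, 12.9% higher and 14.6% lower), the lower one being Igfbp6 with dim signal in both groups. In the Pdgf tumours, for which no test is given, 3 members were more than 2-fold higher and 1, Igfbp6, lower with dim signal in both groups, where 32.0% of all genes were called, 16% in each direction.

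**Figure D2:**
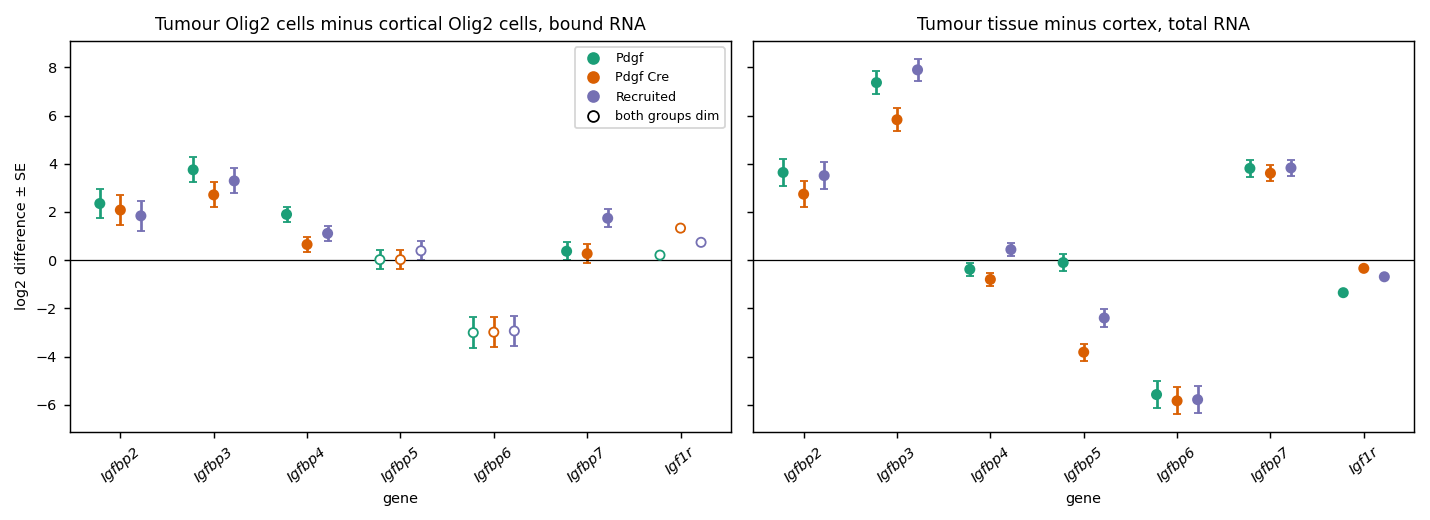
Log2 difference with its standard error (vertical axis) of the 7 genes (horizontal axis) between tumour and cortex, for bound RNA of Olig2 cells (left) and total RNA (right) of the 3 tumour variants; open points mark genes dim in both groups, and the Pdgf points on the left are described only. In total RNA Igfbp2, Igfbp3 and Igfbp7 lay above 0 and Igfbp6 below 0 in all 3 variants.

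Total tumour RNA was set against total cortex. There, 3 members rose in each of the 3 variants, Igfbp2, Igfbp3 and Igfbp7, and 2 fell; the background was 50.5% of genes in Pdgf (25.0% higher, 25.5% lower), 47.9% in Pdgf Cre (22.8% higher, 25.0% lower) and 50.2% in Recruited tumours (23.7% higher, 26.4% lower). The total RNA of the Pdgf tumours pairs by number with the bound arrays that drew attention to Igfbp3, and the 3 variants share the total cortex arrays. Igfbp3 read 10.94, 10.04 and 10.65 in Pdgf, 8.85, 8.59 and 9.57 in Pdgf Cre and 10.98, 12.89 and 9.34 in Recruited tumours. It was at least 29.9-fold, 10.3-fold and 43.0-fold above total cortex (adjusted p = 2.13e-14, 5.28e-12 and 5.25e-15, limma). Igfbp2 rose 12.5-fold in Pdgf, 6.68-fold in Pdgf Cre and 11.4-fold in Recruited tumours (adjusted p = 1.01e-06, 6.62e-05 and 1.95e-06, limma). Without Recruited tumour 3 the Recruited log2 differences went from 7.90 to 8.76 for Igfbp3, from 3.51 to 4.20 for Igfbp2 and from 3.83 to 4.46 for Igfbp7.

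Igfbp7 read 13.22, 11.63 and 12.13 in Pdgf, 12.2, 11.75 and 12.41 in Pdgf Cre and 12.31, 13.63 and 11.08 in Recruited total RNA, and no array overlapped total cortex. It rose 14.1-fold, 12.2-fold and 14.2-fold (adjusted p = 5.18e-11, 1.97e-10 and 5.87e-11, limma). Marker sums of vessels, immune cells and choroid plexus were mostly higher on the same arrays. The summed signal of 13 endothelial markers was 9.33 to 11.64 in total tumour RNA and 7.95 to 8.26 in total cortex, with 8 of 13 dim in each tumour group and Pecam1 at the floor throughout. The sum of 15 mural and fibroblast markers was 10.87 to 15.47 against 9.13 to 9.67, with 4 of 15 dim in Pdgf and 6 of 15 in Pdgf Cre and Recruited tumours. The sum of 13 microglia markers was 12.84 to 15.79 against 10.52 to 11.46. The sum of 9 choroid plexus and ependymal markers was 12.4, 5.5 and 14.32 in Pdgf, 13.55 to 14.84 in Pdgf Cre and 10.46 to 15.22 in Recruited total RNA, against 5.97 to 6.22 on 4 of 5 cortex arrays and 12.02 on array 3, with 7 or 8 of 9 dim in each group. The part of these markers in the rise of Igfbp2, Igfbp3 and Igfbp7 was not tested.

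Igfbp6 fell by at least 8.34-fold in all 3 variants (adjusted p from 2.83e-10 to 5.87e-10, limma), and its 9 tumour arrays were dim. Here too the filter on dim signal, which Igfbp6 passed through neuron and total cortex arrays, favoured a lower call. The neuron marker sum was 13.79 to 15.22 on these arrays except that of Recruited tumour 3, under the total cortex range of 16.54 to 16.72; its part in the Igfbp6 result was not tested. Igfbp5 kept a level near total cortex in Pdgf tumours, at 6.81, 7.08 and 6.91 (1.07-fold lower, adjusted p = 0.81, limma). It was dim in Pdgf Cre tumours, at least 2.62-fold below total cortex (adjusted p = 1.4e-10, limma). In Recruited tumours it read 3.25, 6.67 and 3.98, dim on 2 of 3 arrays, and was at least 2.07-fold below total cortex (adjusted p = 7.76e-07, limma). Igf1r fell 2.55-fold in Pdgf tumours (adjusted p = 2.03e-14, limma), a difference under 2-fold as deposited (log2 difference -0.65) and with spike-in scaling (-0.97). Its differences of 1.27-fold in Pdgf Cre and 1.62-fold in Recruited tumours were under the threshold. Igfbp4 did not pass in any variant, with 1.30-fold, 1.74-fold and 1.36-fold differences.

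Bound and total RNA of the same-numbered tumours could be set side by side. Igfbp3 was about as strong in bound as in total RNA of Pdgf and Pdgf Cre tumours: the Pdgf differences were -0.47, 0.34 and -0.20, and the Pdgf Cre differences 0.32, 0.53 and 0.31 on the log2 scale. In the 3 Recruited tumours bound RNA was lower by 1.00, 1.62 and 0.69, written as bound minus total. The Recruited difference missed the threshold without pairing (2.15-fold, adjusted p = 0.0634, limma) and passed with the tumour as a fixed term (log2 difference -1.10, adjusted p = 1.5e-06, limma). It also passed without Recruited tumour 3 (log2 difference -1.31, adjusted p = 0.00658, limma) and without bound array 2 (-1.76, adjusted p = 0.00468, limma). It passed as deposited (-1.21, adjusted p = 0.03) and with spike-in scaling (-1.31, adjusted p = 0.0378, limma). With arrays left out singly, the unpaired difference ran from -1.97 to -0.19, so its size depends on single arrays. The levels of the Recruited tumours moved together, tumour 2 having the highest and tumour 3 the lowest Igfbp3 in both fractions. On the total RNA array of tumour 2 the mural and fibroblast marker sum was 15.47, against 11.7 and 12.97 for tumours 1 and 3; its part was not tested.

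**Figure D3:**
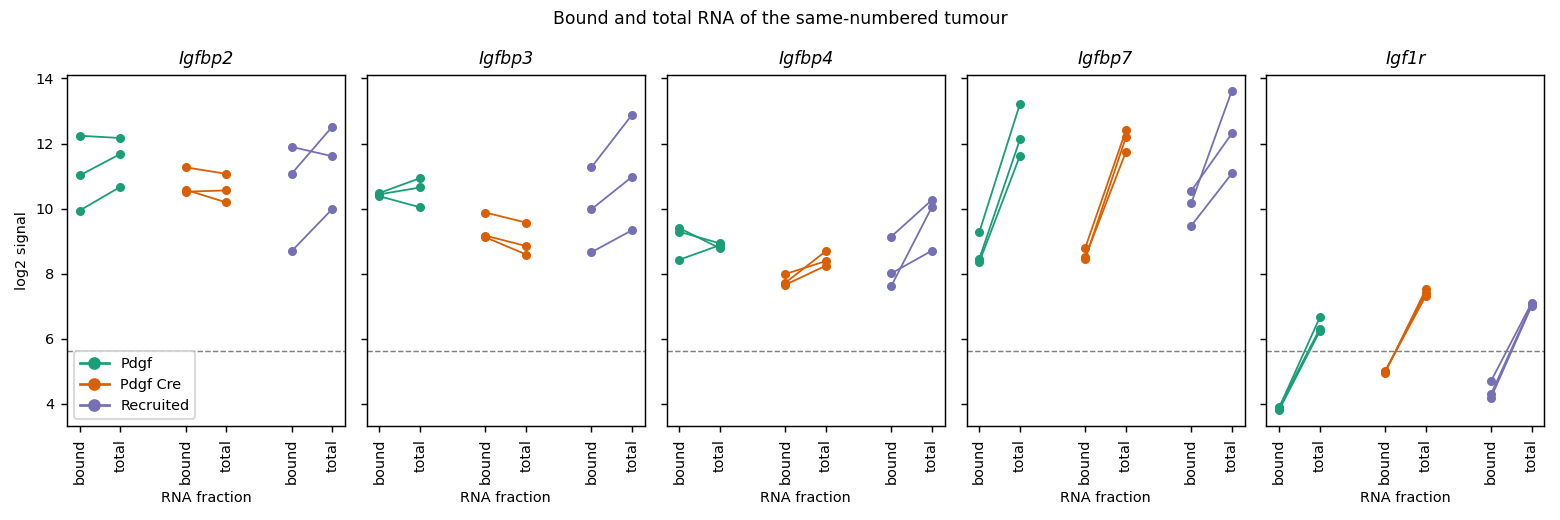
Log2 signal (vertical axis) of 5 genes in bound and total RNA (horizontal axis) of the 9 tumours; each line joins the same-numbered arrays of 1 tumour, colours mark the variant and the dashed line is the dim limit of 5.64. Igfbp7 and Igf1r were lower in bound RNA in all 9 tumours, while Igfbp2 and Igfbp3 were not.

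Igfbp7 read lower in bound than in total RNA in every tumour of the 3 variants. Bound RNA was lower by 3.75, 3.25 and 3.62 in the 3 Pdgf Cre tumours, an 11.6-fold difference (adjusted p = 4.46e-09, limma). In the Recruited tumours bound RNA was lower by 1.78, 3.47 and 1.61, a 4.88-fold difference (adjusted p = 6.53e-06, limma), which missed the threshold when only those 2 groups were fitted (adjusted p = 0.057, limma). In the Pdgf tumours the mean difference was 12.5-fold and is described only. The endothelial sum in bound tumour RNA was 6.71 to 9.67, with 12 of 13 markers dim in each variant. The mural and fibroblast sum there was 7.83 to 11.36, with 12 to 14 of 15 dim.

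Igf1r was dim in bound tumour RNA and above the limit in total RNA. It was at least 3.41-fold lower in bound RNA of Pdgf Cre tumours (adjusted p = 4.38e-19, limma) and at least 2.67-fold lower in Recruited tumours (adjusted p = 4.11e-20, limma). Igfbp4 was 2.68-fold lower in bound RNA of Recruited tumours (adjusted p = 0.000127, limma), and missed the threshold when only those groups were fitted (adjusted p = 0.118, limma). Without Recruited tumour 3 it fell under 2-fold (log2 difference -0.92). Its difference in Pdgf Cre tumours was 1.58-fold (adjusted p = 0.0575, limma). Igfbp2 did not pass in either variant, with differences of 0.20, -0.04 and 0.39 in the Pdgf Cre and 0.30, -1.45 and -1.31 in the Recruited tumours. The Recruited log2 difference of -0.82 passed without bound array 1 (-1.5, adjusted p = 0.0419) and without total array 3 (-1.51, adjusted p = 0.0364, limma). Over all arrays left out singly it ran from -1.51 to 0.11. Counted over the members, 3 were lower in bound than in total RNA of Pdgf Cre tumours (background 38%, 20.0% higher and 18.1% lower) and 4 in Recruited tumours (background 44.3%, 24.1% higher and 20.2% lower), in each case with Igfbp5 among them, dim in both group means. In the Pdgf tumours Igfbp5 (at least 2.44-fold), Igfbp7 and Igf1r (at least 1.69-fold) were lower in bound RNA, with no test, where 32.2% of genes were called, 16.9% higher and 15.3% lower; the bound Igf1r and Igfbp5 signals were dim.

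Whether bound over total RNA differed between Recruited and Pdgf Cre tumours was tested as a difference of differences. No member passed without pairing, against a background of 26.7% (13.8% higher, 12.9% lower). At an unadjusted p under 0.05, 1 of 7 members was counted, and the adjusted p ranged from 0.0681 (Igfbp7) to 0.998 (Igfbp6, limma). With the tumour as a fixed term, Igfbp3 (log2 difference -1.49, adjusted p = 7.19e-06), Igfbp5 (-1.05, adjusted p = 0.0432) and Igfbp7 (1.25, adjusted p = 0.000989, limma) passed. The Igfbp5 means were dim throughout, at 2.53 bound and 4.63 total in Recruited and 2.16 and 3.22 in Pdgf Cre tumours. Only Recruited total array 2 (6.67) was above the limit, so every Igfbp5 call in this contrast rests on dim signal. As deposited, Igfbp5 (-1.21, adjusted p = 0.0442) and Igfbp7 (1.31, adjusted p = 0.037, limma) passed unpaired. Without Recruited tumour 3, Igfbp3 passed unpaired (log2 difference -1.70, adjusted p = 0.0109, limma). Igfbp7 also passed with median centring (1.34, adjusted p = 0.0322, limma). With single Recruited arrays left out, Igfbp3 passed without bound array 2 (-2.14) or total array 3 (-2.36), Igfbp4 without bound array 2 (-1.21) or total array 1 (-1.25), Igfbp5 without total array 1 (-1.74), and Igfbp7 without bound array 3 (1.55) or total array 2 (1.90), with adjusted p from 0.00124 to 0.0313 (limma). Other arrays left out singly shrank the same differences, to as little as -0.58 for Igfbp3, -0.45 for Igfbp4, -0.03 for Igfbp5 and 0.62 for Igfbp7. Single arrays thus moved this contrast either way.

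Between the variants, total RNA differed in a few members. Pdgf Cre tumours had lower Igfbp3 (2.91-fold, adjusted p = 0.018, limma) and Igfbp5 (at least 2.44-fold, adjusted p = 6.9e-09, limma) and higher Igf1r (2.02-fold, adjusted p = 5.47e-10, limma) than Pdgf tumours, 3 of 7 members against 21.1% of all genes (10.4% higher, 10.8% lower). The Igfbp3 call did not pass without Pdgf Cre array 1 or 2 or Pdgf array 1 (adjusted p from 0.053 to 0.0765, limma). It also did not pass with spike-in scaling (log2 difference -1.39, adjusted p = 0.0738, limma). Because the Pdgf total arrays pair by number with the bound arrays that drew attention to Igfbp3, tests of Igfbp3 against them are not independent of that choice. The Igf1r difference was under 2-fold as deposited (log2 difference 0.44), with spike-in scaling (0.80), with median centring (0.83) and without any of 3 arrays (0.93 to 0.97, for Pdgf Cre array 1 and Pdgf arrays 1 and 3). Recruited tumours had lower Igfbp5 than Pdgf tumours (at least 1.93-fold, adjusted p = 1.57e-05, limma; background 34.5%, 16.7% higher and 17.8% lower), which missed the threshold when only those groups were fitted (adjusted p = 0.127, limma). This Igfbp5 difference fell under 2-fold with dim signals raised to the limit (log2 difference -0.95). Recruited array 2 (6.67) was near the Pdgf arrays (6.81 to 7.08), and the other Recruited arrays were dim. Recruited tumours had higher Igfbp3 (4.20-fold, adjusted p = 0.00119, limma) and Igfbp4 (2.35-fold, adjusted p = 0.00076, limma) than Pdgf Cre tumours, and Igfbp5 was called with dim mean signal in both (3 of 7 members, background 36.9%, 18.2% higher and 18.7% lower). With only those groups fitted neither Igfbp3 (adjusted p = 0.155) nor Igfbp4 (adjusted p = 0.0944, limma) passed, and without Recruited array 2 Igfbp4 fell under 2-fold (log2 difference 0.94). Without tumour 3 the Igfbp3 difference was 2.93 (adjusted p = 1.47e-07) and Igfbp2 passed too (log2 difference 1.46, adjusted p = 0.0132, limma). Igfbp3 then also passed between Recruited and Pdgf total RNA (log2 difference 1.39, adjusted p = 0.00219, limma). With arrays left out singly, this Igfbp3 difference ran from -0.38 to 1.39. The Igfbp2 difference between Recruited and Pdgf Cre total RNA ran from 0.19 to 1.46.

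In bound RNA, comparisons with the Pdgf tumours are given without a test. Pdgf Cre tumour Olig2 cells had 2.38-fold lower Igfbp4 and 2.06-fold lower Igfbp3 than Pdgf tumour Olig2 cells, and their Igfbp3 arrays did not overlap. Igf1r was dim in both. Recruited tumour Olig2 cells had 2.58-fold higher Igfbp7, and their Igfbp3 arrays lay on both sides of the Pdgf arrays. The background was 16.6% of genes for the first of these comparisons (7.77% higher, 8.87% lower) and 25.8% for the second (12.8% higher, 13.0% lower).

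The rest of the IGF system was read from a list of ligands, receptors, other binding proteins, proteases and signalling genes, of which 59 were measured and 40 passed the filter. Of the ligands, Igf1 was dim in all 12 groups, its highest mean being 4.97 in Pdgf total RNA. Igf2 was above the limit in total cortex (7.37) and Recruited total RNA (6.75), where it was on all arrays of both groups, and in 1 of 3 astrocyte arrays. Of the receptors, the insulin receptor Insr was listed at the floor of 2.08 in every group, and Igf2r, which clears IGF2 from the cell surface, was above the limit only in Recruited total RNA (6.13). Igf2 was at least 2.15-fold higher in Recruited than in Pdgf Cre total RNA (adjusted p = 4.29e-21, limma). The Igf2r difference was at least 1.40-fold (adjusted p = 2.05e-15, limma) and fell under 2-fold with dim signals raised to the limit (log2 difference 0.49). By its group means, Igf2r passed the filter on dim signal through the Recruited total arrays. A higher call there was favoured in advance, and nothing is read from it.

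Proteases can cut the binding proteins and release their ligands. The folds that follow are those of Pdgf, Pdgf Cre and Recruited total RNA over total cortex, in that order. Adam12, a metalloprotease that cuts Igfbp3 and Igfbp5, was at least 25.8-fold, 14.4-fold and 6.86-fold higher (adjusted p = 1.59e-13, 2.24e-12 and 6.85e-11, limma). Adamts1, a secreted metalloprotease, was at least 17.2-fold, 11-fold and 12.5-fold higher (adjusted p = 2.68e-09, 2.44e-08 and 1.34e-08, limma). Of 14 proteases on the list, 8 passed the filter, which keeps a gene that is bright on any 3 arrays, so that a protease read only in tumours had to differ. Of these 8, 7 were called higher in Pdgf, 8 in Pdgf Cre and 8 in Recruited tumours (8 without tumour 3 as well), beside 25.0%, 22.8% and 23.7% of all genes; nothing is read from these counts.

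In bound RNA, 3 of the 8 proteases were called higher and 1 lower in Pdgf Cre tumour Olig2 cells than in cortical Olig2 cells (36.1% of all genes called), and 4 higher in Recruited tumour Olig2 cells (27.5%). Adam12 was at least 8.86-fold higher in Recruited tumour Olig2 cells (adjusted p = 9.88e-06, limma), and its mean was 8.84, 8.75 and 8.79 in Olig2 cells of Pdgf, Pdgf Cre and Recruited tumours, against a dim 4.96 in cortical Olig2 cells. Adamts1 was at least 4.79-fold higher in Recruited tumour Olig2 cells (adjusted p = 0.00057, limma) and missed the threshold with only those groups fitted (adjusted p = 0.0581, limma). Klk6, a serine protease of the oligodendrocyte lineage, was at least 11.1-fold higher in Recruited than in Pdgf Cre tumour Olig2 cells (adjusted p = 4.72e-08, limma). Mature oligodendrocyte markers summed to 15.8 to 17.38 on the Recruited bound arrays and to 12.08 to 13.37 on the Pdgf Cre bound arrays; their part in this and in the Igfbp7 difference between these groups was not tested.

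Among the other binding proteins, 8 of 12 measured passed the filter. Igfbp1, Igfbpl1 and Igfals were at the floor of 2.08 in every group. The matricellular genes Ccn2 and Ccn3 fell in Pdgf Cre tumour Olig2 cells, Ccn3 by at least 3.90-fold (adjusted p = 8.85e-07, limma) and Ccn2 by at least 2.38-fold (adjusted p = 2.62e-05, limma). The Ccn2 call did not pass with dim signals raised to the limit (adjusted p = 0.123, limma). Htra1, a secreted protease with an IGF binding domain, was read in every group, from 10.06 in neurons upward, and was 6.37-fold lower in neurons than in total cortex (adjusted p = 5.4e-07, limma). Esm1, a proteoglycan of activated endothelium, was at least 3.03-fold higher in Pdgf total RNA (adjusted p = 5.07e-08, limma) and at least 2.55-fold higher in Recruited total RNA (adjusted p = 1.37e-07, limma) than in total cortex, and at the floor in all bound groups. Esm1 passed the filter on dim signal through total tumour arrays, so a higher call there was favoured in advance.

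Of the signalling genes, 21 of 26 measured passed the filter. Over cortical Olig2 cells, 4 rose and 2 fell in Pdgf Cre tumour Olig2 cells, and 4 rose and 3 fell in Recruited tumour Olig2 cells, where 36.1% and 27.5% of all genes were called. Socs3, a feedback inhibitor of cytokine and insulin signalling, was dim in cortical Olig2 cells and at least 5.48-fold higher in Pdgf Cre (adjusted p = 1.62e-06, limma) and at least 5.71-fold higher in Recruited tumour Olig2 cells (adjusted p = 2.09e-06, limma). Irs2, an adaptor between the receptor and PI3K, was at least 4.07-fold lower in Recruited than in Pdgf Cre tumour Olig2 cells (adjusted p = 2.31e-07, limma). Sort1, a sorting receptor counted here with the receptors, was at least 8-fold lower in Pdgf Cre tumour Olig2 cells than in cortical Olig2 cells (adjusted p = 5.3e-19, limma) and at least 6.41-fold higher in Recruited than in Pdgf Cre tumour Olig2 cells (adjusted p = 2.85e-18, limma). Gab1, a docking adaptor, was dim in neurons and at least 7.64-fold below total cortex there (adjusted p = 2.75e-14, limma).

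Over all 40 genes of the list, 8 were higher and 6 lower in Pdgf Cre tumour Olig2 cells and 9 higher and 5 lower in Recruited tumour Olig2 cells than in cortical Olig2 cells, where 36.1% and 27.5% of all genes were called. In total RNA 15 were higher and 10 lower in Pdgf, 14 and 11 in Pdgf Cre, and 16 and 9 in Recruited tumours than in total cortex, with 50.5%, 47.9% and 50.2% of all genes called. Among the cortical cells 3 were higher and 9 lower in neurons, 10 and 16 in astrocytes, 7 and 13 in mature oligodendrocytes, 11 and 15 in progenitors and 11 and 13 in cortical Olig2 cells, beside 28.2%, 61.0%, 52.9%, 48.2% and 56.1% of all genes called in either direction. Between progenitors and mature oligodendrocytes 12 were higher and 8 lower in progenitors (38.7% of all genes called). Mmp2 and Adam12 were at least 4.21-fold and at least 3.21-fold higher in progenitors than in mature oligodendrocytes (adjusted p = 1.25e-10 and 2.72e-08, limma), and Klk6 at least 4.79-fold lower (adjusted p = 3.95e-10, limma).

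**Figure D4:**
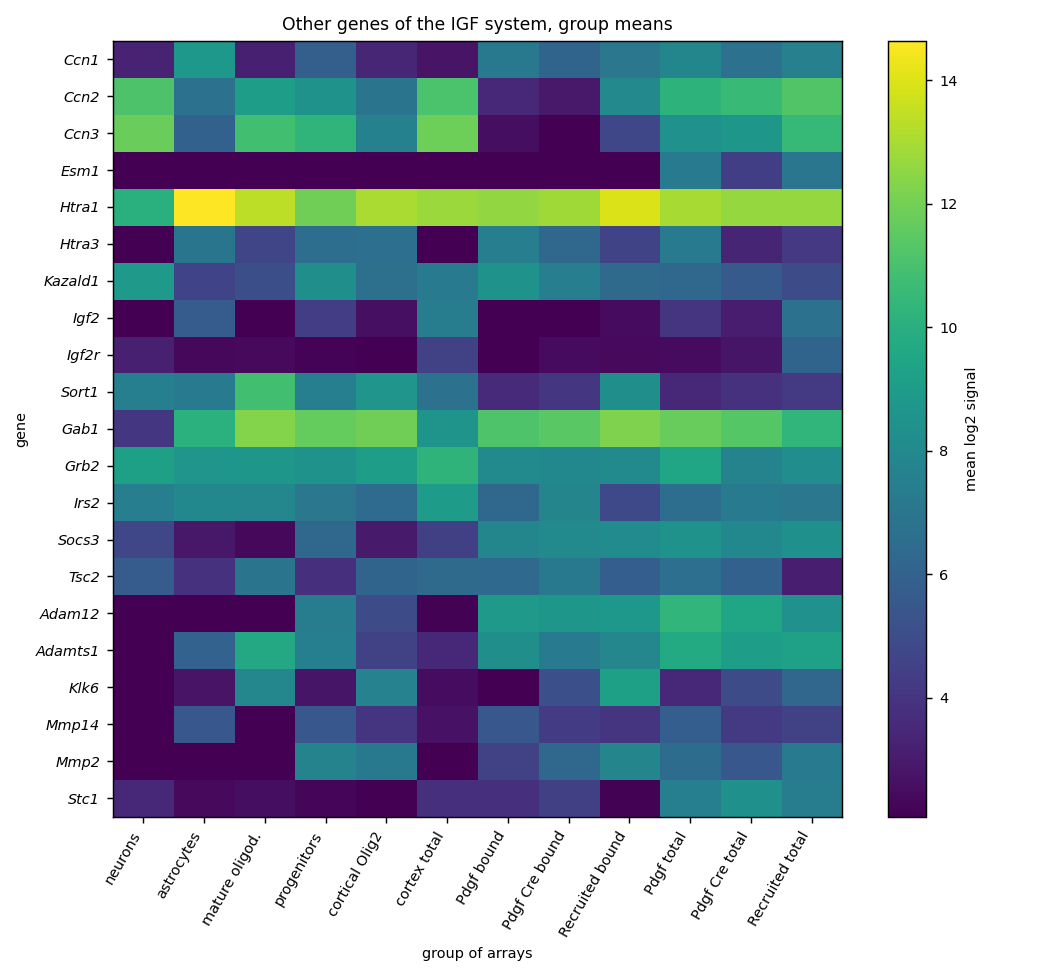
Mean log2 signal (colour) of 21 other genes of the IGF system (vertical axis) in each of the 12 groups (horizontal axis). Adam12 and Adamts1 were brighter in the tumour groups and in progenitors than in total cortex, and Igf2 was bright in total cortex and Recruited total RNA.

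The order of the groups by mean signal gave a profile for each member. For Igfbp3 it ran from Recruited total RNA (11.07) through Pdgf total (10.54), Pdgf bound (10.43), Recruited bound (9.97), Pdgf Cre bound (9.39) and Pdgf Cre total (9.0) to progenitors (8.93), with each neighbour overlapping the next. Progenitors did not overlap cortical Olig2 cells (6.68), the next below. For Igfbp2, astrocytes (11.58) and the 6 tumour groups (10.55 to 11.51) were followed by cortical Olig2 cells (8.71) and total cortex (7.87), and each group overlapped the next through all 12. For Igfbp4, neighbours that did not overlap included Pdgf total (8.86) and Pdgf Cre total (8.45), and Pdgf Cre bound (7.79) and progenitors (7.38). For Igfbp7 the 3 total tumour groups overlapped at the top (12.12 to 12.34) and Recruited bound (10.05) stood alone below them.

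By Pearson's r over the 12 group means, with dim signals raised to the limit, the genes with the profile nearest to that of Igfbp3 were Zcchc8 (0.958), Dab2 (0.945) and Socs3 (0.938). Those nearest to Igfbp2 were Zc3h7b (0.947), Metrn (0.924) and Ifitm3 (0.922), and those nearest to Igfbp4 were Vopp1 (0.955), Rps15a (0.924) and Mest (0.918). Igfbp7 was most like Dmtf1 (0.928), Zfp236 (0.927) and Trio (0.921), and Igf1r most like Kmt5a (0.93), Sacm1l (0.929) and Hivep2 (0.91). For Igfbp5, above the limit in 4 groups, the nearest were Fam120aos (0.912), Rpusd3 (0.903) and Med18 (0.868). Igfbp6 was above the limit in only 2 group means, those of neurons and total cortex. Atp5g1, Cntnap4 and Tbc1d30 were above it in the same 2 groups only, so their r of 1 rests on those 2 means. These values describe 12 means that share arrays and scaling, and carry no p.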

How the data were processed

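The deposited values are log2 signals of 38 one-colour Affymetrix arrays, made with GCRMA per the submitters' processing notes (version not given in the sources used here). Of 16395 probe sets, 64 were array controls and 687 named no gene, which left 15644 genes with 1 probe set each; 15617 symbols matched the RefSeq gene table. From these log2 values, 12 groups were set by the labels' titles. Values were quantile normalised over all arrays, genes above 50 (log2 5.64) on at least 3 arrays were kept (9799; 5845 were left out), and 1 model with 26 residual degrees of freedom was fitted with limma 3.58.1 in R 4.3.3 (lmFit, eBayes), with Benjamini-Hochberg adjustment over all genes in each of 22 comparisons. Of these, 4 hold the Pdgf tumour bound arrays and are described without a test for the members. The script was tested on simulated data. The number of arrays limits the precision.

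The members, gene lists and tests were chosen with earlier results of these data known. Named were the 7 members, up to 4 genes per comparison from the IGF lists (ligands, receptors, other binding proteins, proteases, signalling) with the largest difference among those that passed, the 3 genes most like each member, and the reporter genes. In the text, genes of the IGF lists are given from these sets, along with levels of Igf1, Igfbp1, Igfbpl1, Igfals and Insr, which were named after their values were seen. Marker lists for neurons, astrocytes, mature oligodendrocytes, progenitors, microglia, endothelium, mural cells and fibroblasts, and choroid plexus were summed on the linear scale; the progenitor sum was 15.59 to 15.86 on the bound arrays of all 3 tumour variants and 15.59 to 15.69 in cortical Olig2 cells, and 7 to 9 of the 9 choroid plexus markers were dim in every group.

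Same-numbered bound and total arrays of a tumour deviated together (lowest correlation 0.473 in Pdgf, 0.428 in Pdgf Cre and 0.266 in Recruited tumours), so the numbers were taken to pair them; the pairing comes from this check. Alternatives were the values as deposited, spike-in scaling, median centring, no filter or one at 100, only the groups compared, an intensity trend with robust prior, replicate blocks, dim signals raised to the limit, leaving out each array, and leaving out Recruited tumour 3.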

Additional observations from a re-analysis of the deposited data

Results flagged for a closer look

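Among the 5 total cortex arrays, Igfbp3 read 3.10, 3.09, 3.09, 3.10 and 3.48. The gap from the highest array to the next was 0.963 of the whole range, which sets array 5 apart from the other total cortex arrays. All 5 values were under the dim limit of 5.64, so nothing is read from this gap. The rule that flagged the gap would flag about 1 of 20 groups by chance if values were normally spread. That rate belongs to the rule, and how often chance gives a gap of this size was not tested.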

How the results depend on the processing

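No member's call changed direction under any alternative that was run. Of 66 member calls in the 18 tested comparisons, 43 kept their side of the threshold under all alternatives and 23 lost it under at least 1; of 72 calls of other IGF genes, 15 lost it. Members' calls were lost with dim signals raised to the limit (10), with only the groups compared (9, all in comparisons of Recruited tumours), on leaving out 1 array (9), with spike-in scaling (6), median centring (4), the replicate number as a block (4) and the values as deposited (3), and 1 each without the filter and without Recruited tumour 3. Counts of all genes called moved by more than 1.5 times in few settings. As deposited, 4774 genes were called in neurons (2765 in the main setting); the median difference of all genes was 0.66 there (0.03 in the main setting), and under the other comparisons and scalings it was -0.58 to 0.41. The contrast of bound over total RNA between Recruited and Pdgf Cre tumours went from 2617 to 1424 with spike-in scaling and 1713 with only the groups compared, and Recruited against Pdgf total RNA from 3383 to 2045 with only those groups. With dim signals raised, counts were 1711 in neurons, 1657 in Recruited against cortical Olig2 cells, 2099 in Pdgf bound against total, 922 and 1557 in Pdgf Cre and Recruited against Pdgf bound RNA, 1231 in Pdgf Cre against Pdgf total RNA and 1640 for the contrast of bound over total RNA. The cause was not tested.

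The share of calls in the higher direction moved by over 10 points with another scaling: as deposited in neurons (47.5% to 75.4%), Recruited Olig2 cells (47% to 63.7%), Pdgf and Recruited total RNA over cortex (49.5% to 66% and 47.3% to 69.9%), Pdgf Cre over Pdgf and Recruited over Pdgf Cre total RNA (49% to 26.6% and 49.3% to 75.1%); with spike-in scaling in astrocytes (51% to 34%), cortical Olig2 cells (52.5% to 40.2%), Pdgf Cre Olig2 cells (49.2% to 62%) and the contrast of bound over total RNA between variants (51.8% to 35.6%); and with both in progenitors over mature oligodendrocytes (48.6% to 35.4% and 31.7%), Recruited over Pdgf Cre bound RNA (50.7% to 70.9% and 34%), Pdgf Cre over Pdgf bound RNA (46.7% to 29.3% and 69.4%), and bound over total RNA of Pdgf (52.4% to 17.9% and 21.9%), Pdgf Cre (52.5% to 23.3% and 32.7%) and Recruited tumours (54.4% to 31.6% and 27.1%).

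Outside bound against total RNA the replicate numbers did not pair the arrays (their lowest correlations were -0.202 to 0.084). The replicate number as a block moved no count of calls by over 1.5 times (2800 in neurons bound against cortex total). With the replicate number as a block, the calls of Igfbp2 in neurons (adjusted p = 0.0725), mature oligodendrocytes (0.0585) and progenitors (0.15) and of Igfbp3 in astrocytes (0.0935, limma) did not pass; with the tumour as a block, no member call beside those given in the text changed. Leaving out 1 array moved no count of all genes by over 1.5 times. Dim signal limits Igfbp5 and Igfbp6 in the oligodendrocyte lineage and Igf1r in bound RNA of Olig2 cells, where the order of the groups cannot be read.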
